A study of Mus musculus with 6 samples.

Results

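The 10 genes S100a4, S100a6, S100a10, S100a11, Anxa1, Anxa2, Lgals1, Lgals3, Vim and Crip1, which are often read together as an activation and motility program of T cells, were followed in regulatory T cells (Tregs) of the bone marrow (BM). They were chosen by name, with earlier results of these data known, and each name matched 1 of the 36930 features in every library. Chronic myeloid leukemia (CML) is a blood cancer driven by the fusion kinase BCR-ABL1. CML mice had received sorted LSKs, the stem and progenitor cell fraction of the BM, after 2 rounds of transduction with a BCR-ABL1-GFP retrovirus, by intravenous injection and without irradiation. Tregs were FACS-purified from the BM of 3 such mice at day 15 after CML induction and from the BM of 3 naive mice. All 6 animals were Foxp3-DTR-GFP mice of postnatal week 8, in which the Foxp3 locus drives a diphtheria toxin receptor and GFP, so the controls carried the same allele and the leukemia cells carried GFP as well.

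All comparisons ask whether mRNA of these genes differed between CML Tregs and naive Tregs. Levels are RPKM, read counts scaled by feature length and library size, which allows levels of different genes to be set side by side. Library sizes, estimated from the spacing of the values, were 829181 to 7613827 reads in the CML group and 5187987 to 9751911 reads in the naive group, with CML replicate 2 the shallowest. In that library the 10 most abundant features held 50.7% of the summed values, against 28.5% to 31.3% in the other libraries. The Treg identity given by the labels was checked first. Foxp3, the defining transcription factor of Tregs, was at 468, 299 and 427 RPKM in CML replicates 1, 2 and 3 and at 297, 367 and 349 RPKM in naive replicates 1, 2 and 3, and all 10 T cell and Treg markers were detected in all 6 libraries. Values are given in this order of replicates throughout. With RNA of sorted cells in bulk, fewer cells that express a gene and less RNA per cell cannot be told apart.

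S100 proteins are small EF-hand proteins, most of which change shape on binding calcium and then dock onto target proteins, often at the membrane or the cytoskeleton. Annexins bind phospholipids in the presence of calcium, and several S100 proteins form complexes with them, S100a10 with Anxa2 and S100a11 with Anxa1. Galectins bind beta-galactosides on glycoproteins of the cell surface, and galectin-1, made by Lgals1, is a known product of Tregs with immunosuppressive activity. Vim encodes vimentin, the intermediate filament of leukocytes, and Crip1 encodes a small LIM domain protein. In T cells, mRNA of many of these genes is known to be low in naive cells and high in effector and memory cells.

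The 10 genes lie on 7 chromosomes, and the 4 S100 genes are all on mouse chromosome 3. All are protein-coding, and their positions are those of RefSeq on GRCm38.p6. Promoter sequence was available for 8 of the 10 genes, without an entry for S100a10 and Lgals1, from RefSeq on the build GRCm38.p6. The 150 bases before the annotated start are printed, 5′ to 3′ on the strand of the gene, for 5 genes. S100a4 and S100a6 are shown because they lie in the same gene cluster and had similar levels. S100a11 and Vim are shown because they gave the smallest p values, and Anxa1 because its coefficient of variation among the CML mice was the largest. Capitals mark TATAAA, searched on the strand of the gene, and in S100a11 they mark TGANTCA, the AP-1 motif, searched on both strands.
S100a4, chr3:90603620-90603769, plus strand: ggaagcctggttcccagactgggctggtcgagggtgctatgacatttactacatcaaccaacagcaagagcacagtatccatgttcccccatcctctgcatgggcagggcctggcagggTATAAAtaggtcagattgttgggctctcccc
S100a6, chr3:90612744-90612893, plus strand: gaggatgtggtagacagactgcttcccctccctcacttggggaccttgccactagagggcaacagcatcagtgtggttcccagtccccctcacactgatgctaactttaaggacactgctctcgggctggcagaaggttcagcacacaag
Vim, chr2:13574161-13574310, plus strand: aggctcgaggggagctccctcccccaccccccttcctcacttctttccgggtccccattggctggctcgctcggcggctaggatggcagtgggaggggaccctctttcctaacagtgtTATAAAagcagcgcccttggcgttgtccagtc
Anxa1, chr19:20390672-20390821, minus strand: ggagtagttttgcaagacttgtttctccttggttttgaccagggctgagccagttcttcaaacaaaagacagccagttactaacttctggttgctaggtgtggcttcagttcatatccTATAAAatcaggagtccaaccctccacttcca
S100a11, chr3:93520346-93520495, plus strand: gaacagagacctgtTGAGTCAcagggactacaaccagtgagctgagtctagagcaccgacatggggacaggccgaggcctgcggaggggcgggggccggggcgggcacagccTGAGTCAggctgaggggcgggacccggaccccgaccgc

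TATAAA stood 31 bases before the start of S100a4 and 32 bases before the starts of Vim and Anxa1, and Anxa2 held it at 17 bases. That is 4 of the 8 promoters searched over 250 bases, whereas 7.59% of 32851 mouse promoters of this length held these letters on the gene's strand. S100a6 had no match. TGANTCA occurred in S100a11 at 136 and 38 bases before the start and in Anxa2 at 95 bases, 2 of 8 promoters beside 6.75% of all. CACCC, the core letters bound by KLF factors, was in 5 of 8, beside 52.0% of all promoters, with both strands searched. These matches describe the letters of the reference sequence and were not tested against the expression values.

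Tregs of the BM contained abundant mRNA of 8 of the 10 genes in both groups. In naive Tregs, mean levels ran from 659 RPKM for S100a10, the 99.6th percentile of the 13923 genes tested, through Vim at 352, Lgals1 at 319, Crip1 at 276, S100a6 at 204 and S100a4 at 157.6 RPKM, down to S100a11 at 55.0 and Anxa2 at 48.3 RPKM. Lgals3 at 8.16 RPKM and Anxa1 at 4.99 RPKM were far lower, at the 38.2th and 27.5th percentiles. Ranges of the naive libraries overlapped between Vim and Lgals1, between Lgals1 and Crip1, between S100a11 and Anxa2 and between Lgals3 and Anxa1, so these neighbors in the order were not separated by their spread. In CML Tregs the order of the first 8 genes by mean was the same, but the ranges of the 6 most abundant genes ran into each other, and Anxa1 at 10.4 RPKM came before Lgals3 at 7.39 RPKM.

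**Figure D1:**
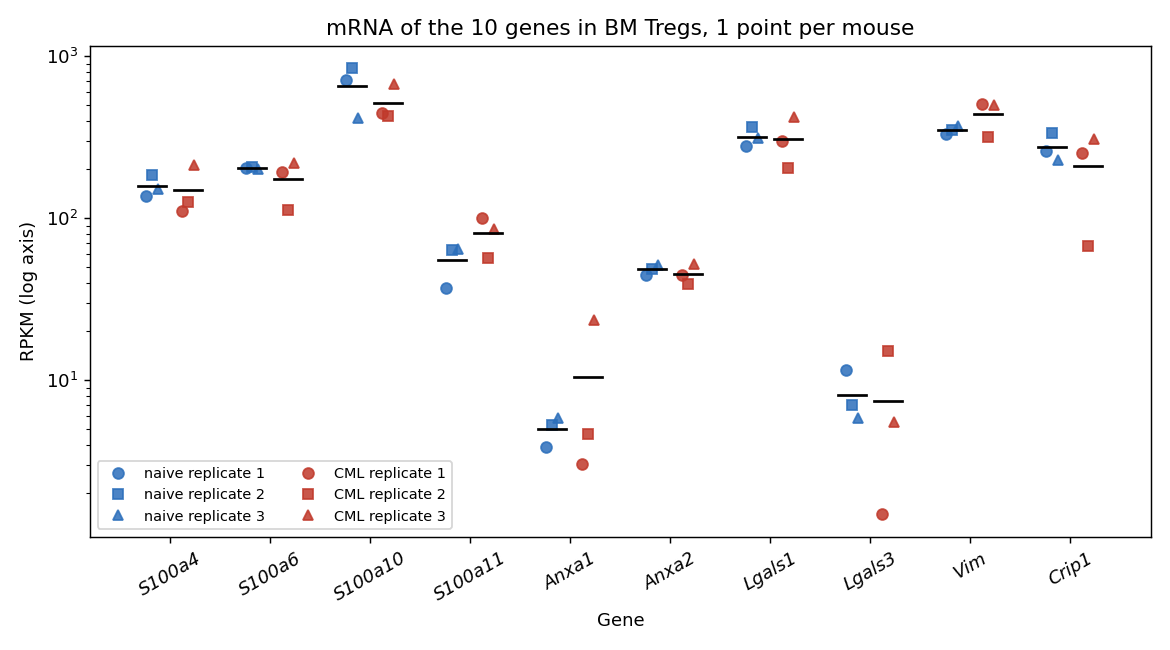
RPKM on a log axis for each of the 10 genes, with 1 point per mouse (blue, naive; red, CML; circle, square and triangle for replicates 1, 2 and 3) and a bar at each group mean. The red and blue points overlap for every gene, and the red points of Anxa1 (3.03 to 23.5 RPKM), Lgals3 (1.49 to 15.2 RPKM) and Crip1 (67.0 to 308 RPKM) are spread widest.

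No gene of the 10 passed the test between CML and naive Tregs, although the study's own list of changed genes holds S100a11 and Vim. In the limma fit across all genes tested, 0 of the 10 passed an adjusted p of 0.05 with a fold of at least 1.5, a call that 0.172% of all genes tested received, 24 genes in number. On data simulated over all genes tested, the fit called 33% of genes changed by 2 on the log2 scale. That share was not computed for the 10 genes, whose median standard error was smaller, at 0.28 against 0.42 over all genes. Of their confidence intervals, only those of Anxa1 (-1.10 to 2.05) and Lgals3 (-2.04 to 1.11) reached a change of that size. Smaller changes lie within the intervals, so the lack of a call does not show the lack of a change. At an unadjusted p under 0.05, 0 of the 10 were higher in CML Tregs, beside 2.92% of all genes, and 0 were lower, beside 6.77% of all genes. The mean was higher in CML Tregs for 3 genes on the log2 scale, S100a11, Anxa1 and Vim, and lower for the other 7. In none of the 10 did every CML library lie above every naive library, which 4.84% of all genes showed, or below, which 12.2% showed. The median log2 fold change of the 10 genes, CML minus naive, was -0.11, and that of all genes tested was -0.18.

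The median standard error of the log2 fold change was 0.28 for the 10 genes and 0.42 over all genes, and 3815 genes had a larger absolute log2 fold change than any of the 10. The smallest adjusted p among the 10 was 0.584, for S100a11, by limma with Benjamini-Hochberg adjustment. Exact 2-sided permutation tests on log2(RPKM + 1) gave p values from 0.3 for S100a11 to 0.9 for Anxa1, where 3 mice against 3 cannot give a p below 0.1.

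**Figure D2:**
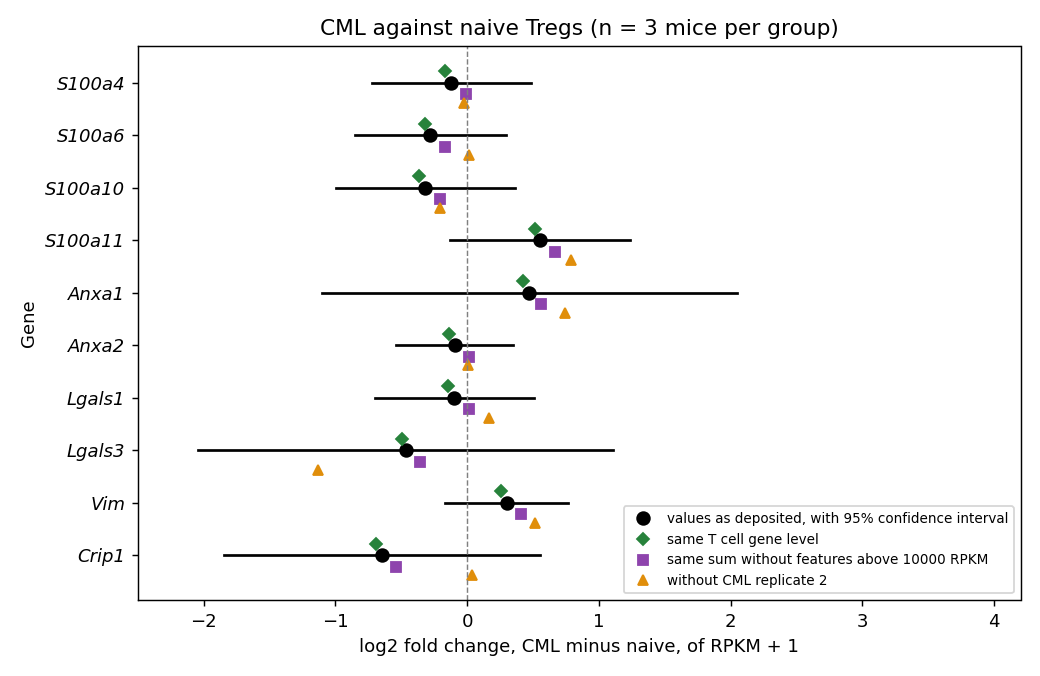
log2 fold change (CML minus naive) of RPKM + 1 for each of the 10 genes. Black circles with lines are the limma estimates on the deposited values with 95% confidence intervals, and colored symbols are estimates after scaling to the same T cell gene level, after scaling to the same sum without features above 10000 RPKM, or without CML replicate 2. All 10 intervals include 0, and those of Anxa1 (-1.10 to 2.05) and Lgals3 (-2.04 to 1.11) are the widest.

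None of the 4 S100 genes passed the test. S100a4, whose protein binds nonmuscle myosin and is linked to cell motility, lies at chr3:90603770-90606045. Its level was 110.3, 126 and 213 RPKM in CML Tregs and 137, 185 and 151 RPKM in naive Tregs. CML replicate 3 was the highest of the 6 libraries and CML replicates 1 and 2 the lowest, so that the CML libraries lay on both sides of the naive range. Its log2 fold change was -0.12 with a 95% confidence interval of -0.72 to 0.48. S100a6, or calcyclin, is at chr3:90612894-90614414, 6849 bases beyond S100a4. It was the steadiest of the 10 genes in naive Tregs, at 204, 207 and 201 RPKM, a coefficient of variation of 1.56%. The CML libraries were at 192, 112 and 220.3 RPKM, with replicate 2 well below the naive range, replicate 1 a little below it and replicate 3 above it. The log2 fold change of S100a6 was -0.28 with an interval of -0.85 to 0.30.

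S100a5 stands between S100a4 and S100a6 on the chromosome and was listed at 0 in all 6 libraries, and S100a3, on the other side of S100a4, was listed at 0 in 5 libraries and at 1.34 RPKM in naive replicate 3. High levels in this cluster were thus not shared by all neighboring genes. S100a8, which lies 54657 bases beyond S100a6 and is a product of neutrophils, is described with the neutrophil genes.

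S100a10, the partner of annexin A2 at the plasma membrane, is at chr3:93555117-93564645. With 445, 431 and 674 RPKM in CML Tregs and 719, 843 and 414 RPKM in naive Tregs it was the most abundant of the 10 genes in both groups by mean. Naive replicate 3 was the lowest of all 6 libraries, whereas naive replicates 1 and 2 were the highest. The log2 fold change of -0.32, with an interval of -0.999 to 0.36, rested on naive replicate 3 in its position relative to the CML range, since without it every CML library lay below the remaining naive libraries, at a log2 fold change of -0.62, an unadjusted p of 0.0381 and an adjusted p of 0.756 by limma.

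S100a11, the partner of annexin A1, is at chr3:93520496-93526288, 28829 bases before S100a10. Levels were 101, 56.8 and 85.4 RPKM in CML Tregs and 37.0, 63.7 and 64.2 RPKM in naive Tregs. CML replicates 1 and 3 were above all naive libraries, and CML replicate 2 lay inside the naive range. At the length of the longest transcript, 24.1 reads of CML replicate 2 would fall on S100a11, a counting error of 20.4%. A shorter feature length would mean fewer reads and a larger error. On the log2 scale the fold change was 0.56 with a standard error of 0.30 and an interval of -0.13 to 1.24, the smallest p of the 10 genes at 0.0975 before and 0.584 after adjustment. Without CML replicate 2 it was 0.79, with an unadjusted p of 0.0254 and an adjusted p of 0.329. S100a11 and S100a10 thus stand side by side on the chromosome with estimates of opposite sign, neither of which passed the test. A copy named S100a11-ps is annotated, and reads shared with it could be placed on either, so the level of S100a11 is uncertain to that extent.

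Anxa1 and Anxa2 differed more in level than in fold change. Anxa2 encodes a membrane-binding annexin that organizes actin and membranes together with S100a10, and lies at chr9:69453683-69491792. Its mRNA was at 44.8, 39.0 and 52.3 RPKM in CML Tregs and at 44.4, 48.8 and 51.6 RPKM in naive Tregs. All 6 libraries lay close together, with CML replicate 2 the lowest and CML replicate 3 the highest, and the ratio of highest to lowest was 1.34, the smallest of the 10 genes. An overlapping gene, Mir3109, is annotated and was at 48.8 RPKM in naive replicate 3 and listed at 0 in every other library. Reads of the overlap cannot be separated without a strand-specific kit. For Anxa2 the log2 fold change was -0.09 with an interval of -0.54 to 0.35, that is from 0.688-fold to 1.28-fold of the naive level. Anxa2 and its partner S100a10 were both abundant, and neither passed the test.

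Anxa1, an annexin with anti-inflammatory activity in leukocytes, is at chr19:20373434-20390671. It was at 3.03, 4.63 and 23.5 RPKM in CML Tregs and at 3.89, 5.26 and 5.81 RPKM in naive Tregs. CML replicate 3 stood far above the other 5 libraries, while CML replicate 1 was the lowest of all libraries. The mean of 10.4 RPKM ± 11.4 (SD, n = 3) in CML Tregs was therefore set by 1 mouse, beside 4.99 RPKM ± 0.990 (SD, n = 3) for the naive mice. For Anxa1 the log2 fold change was 0.47 with an interval of -1.10 to 2.05, and it was -0.32 without CML replicate 3.

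Lgals1 encodes galectin-1, which binds glycoproteins such as CD45 and CD43 and can restrain effector T cells. It lies at chr15:78926725-78930465 and was at 302, 204 and 421 RPKM in CML Tregs and at 279.7, 365 and 312 RPKM in naive Tregs. CML replicate 2 was the lowest and CML replicate 3 the highest library, with the naive libraries between them. Its log2 fold change was -0.10 with an interval of -0.70 to 0.50. The annotation has a copy, Lgals1-ps1, and an overlapping gene, Gm30368, at 0.401 to 2.77 RPKM, and without a strand-specific kit reads of overlapping genes cannot be separated.

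Lgals3, which encodes galectin-3, a galectin abundant in myeloid cells, lies at chr14:47373860-47386167. It was at 1.49, 15.2 and 5.50 RPKM in CML Tregs and at 11.6, 7.03 and 5.81 RPKM in naive Tregs. CML replicate 2 was the highest library of the 6 and CML replicate 1 the lowest, a ratio of 10.2 between mice of 1 group. At the length of the longest transcript, each CML value of Lgals3 would rest on 16.1 to 17.9 reads, with a counting error of at least 23.7%. The naive values would rest on 80.3 to 87.5 reads. A shorter feature length behind the values would mean fewer reads and a larger error. The log2 fold change was -0.47 with an interval of -2.04 to 1.11. Without CML replicate 2 it was -1.14, and every remaining CML library lay below every naive library at an unadjusted p of 0.0776 and an adjusted p of 0.454 by limma. Without CML replicate 1 the sign turned, to 0.21.

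Vim, at chr2:13574311-13582826, was at 509.7, 319 and 497 RPKM in CML Tregs and at 330.2, 353 and 372 RPKM in naive Tregs. CML replicates 1 and 3 were above all naive libraries by a wide margin, and CML replicate 2 was the lowest library of the 6. Vim had a log2 fold change of 0.30, with a standard error of 0.20 and an interval of -0.17 to 0.77. Without CML replicate 2 the log2 fold change was 0.52, with an unadjusted p of 0.00374 and an adjusted p of 0.200, and both remaining CML libraries exceeded all naive libraries.

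Crip1, at chr12:113152012-113153879, was at 253, 67.0 and 308 RPKM in CML Tregs and at 261, 338 and 229.6 RPKM in naive Tregs. CML replicate 2 was far below the other 5 libraries, which lay within a common range. Crip1 had a log2 fold change of -0.65, the largest in size of the 10 genes, with a standard error of 0.52 and an interval of -1.85 to 0.55, and it was 0.03 without CML replicate 2. At the length of the longest transcript, 28.7 reads of CML replicate 2 would fall on Crip1, a counting error of 18.7%. A shorter feature length would again mean fewer reads and a larger error.

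Among CML mice the levels were spread more widely for most of the genes, a difference in spread that was not tested. It was also seen in genes outside the 10, and its share over all genes was not computed. The coefficient of variation was larger in CML Tregs for 8 of the 10, for example 110% against 19.9% for Anxa1, 95.2% against 37.7% for Lgals3 and 60.4% against 20.1% for Crip1, and it was smaller for S100a10 (26.5% against 33.6%) and S100a11 (27.5% against 28.3%). CML replicate 3 was the highest CML library for 7 genes, and CML replicate 2 was the lowest CML library for 7 genes. Summed over the 10 genes, levels were 1961, 1374 and 2501 RPKM in CML Tregs and 2027, 2415 and 1806 RPKM in naive Tregs, so that both the lowest and the highest sums were in CML mice. The share of all summed values was smallest in CML replicate 2, at 0.168%, and reached 0.341% in naive replicate 2.

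**Figure D3:**
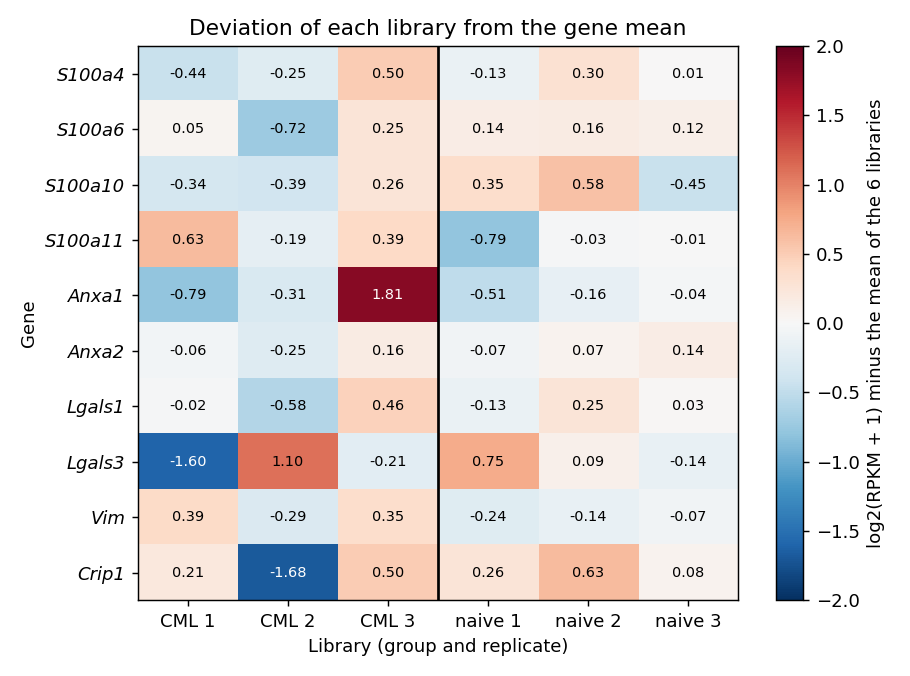
Deviation of each library (columns, CML 1 to 3 and naive 1 to 3) from the mean of the 6 libraries for each of the 10 genes (rows), in units of log2(RPKM + 1), red above and blue below. The column of CML replicate 3 is red in all rows except Lgals3 (-0.21), and the column of CML replicate 2 is blue in all rows except Lgals3 (1.10).

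The deviations averaged over the 10 genes were -0.20, -0.36 and 0.45 on the log2 scale in CML Tregs and -0.04, 0.18 and -0.03 in naive Tregs. S100a4 and Lgals1 followed this mean profile most closely over the 6 libraries, with root mean square differences of 0.13 on the log2 scale, and Anxa2 came next at 0.16. Lgals3 at 0.93, Anxa1 at 0.65 and Crip1 at 0.61 followed it least. Among 7765 other genes averaging 10 RPKM or more, those most like the mean profile were Uri1 (0.05), Nosip (0.05), Zfpm1 (0.07), Mcl1 (0.07) and Ing4 (0.07), by the same measure. Mcl1, a survival factor of the Bcl-2 family, was at 180.0, 174 and 265 RPKM in CML Tregs and at 203, 225 and 193 RPKM in naive Tregs. The likeness is over 6 libraries only and describes their levels.

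Markers of other BM cells were set beside these values. Over 14 neutrophil markers, of which Retnlg and Mmp8 were listed at 0 in all libraries, summed levels were 24.1, 218 and 255 RPKM in CML Tregs and 37.8, 65.3 and 69.1 RPKM in naive Tregs, and 10 had the higher mean in CML Tregs. CML replicates 2 and 3 were thus highest, and these are the libraries in which Lgals3 and Anxa1, respectively, reached their highest values. The other libraries did not follow the same order. Lgals3 was at 5.50 RPKM in CML replicate 3 and at 11.6 RPKM in naive replicate 1, and Anxa1 at 4.63 RPKM in CML replicate 2. Mpo, the peroxidase of neutrophil granules, was at 3.29, 37.5 and 84.6 RPKM in CML Tregs and at 15.1, 9.83 and 10.4 RPKM in naive Tregs. Its level was highest in CML replicate 3, the library with the most Anxa1. Whether neutrophil RNA took part in the Anxa1 and Lgals3 values was not tested.

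Of the 9 monocyte and macrophage markers in the tables, Fcgr1 was listed at 0 throughout, and the summed levels overlapped between groups, at 62.3 to 89.7 RPKM in CML Tregs and 73.9 to 95.1 RPKM in naive Tregs. Summed erythroid markers were higher in every CML library, at 35.6 to 206 RPKM against 5.01 to 29.6 RPKM. B cell markers were near 0, with Pax5, Ebf1 and Vpreb1 listed at 0 in all libraries and summed levels of at most 10.7 RPKM. Stromal and endothelial markers summed to 9.25 to 15.3 RPKM in CML Tregs and 3.01 to 12.2 RPKM in naive Tregs, with Col3a1, Cxcl12, Lepr and Pdgfrb listed at 0. Markers of CD8 T cells and NK cells summed to 82.7 to 113 RPKM and 43.0 to 93.2 RPKM, and those of stem and progenitor cells to 8.50 to 12.1 RPKM and 3.92 to 4.70 RPKM. The part of these cells in the results on the 10 genes was not tested.

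No gene of the wider families passed the test either. Of 12 other S100 genes, 4 passed the filter on low values, a mean over the 6 libraries of 1 RPKM or more, and 5 were listed at 0 in all libraries, and 0 of the 4 passed an unadjusted p of 0.05. S100a13, which takes part in the release of signal proteins lacking an export signal, was at 71.5, 44.9 and 163 RPKM in CML Tregs and 67.8, 52.4 and 67.1 RPKM in naive Tregs, again with CML replicate 3 highest and CML replicate 2 lowest. S100a8 and S100a9, the subunits of calprotectin and also part of the neutrophil list, were at 0, 49.1 and 12.96 RPKM and at 1.54, 67.0 and 33.3 RPKM in CML Tregs. In naive Tregs they were at 0.714, 3.80 and 7.98 RPKM and at 5.07, 21.0 and 17.4 RPKM. Both were highest in CML replicate 2 and lowest in CML replicate 1, an order that among the 10 genes Lgals3 had as well. S100g, a vitamin D dependent calcium-binding protein, was at 0 to 10.1 RPKM in CML Tregs and 0 to 3.33 RPKM in naive Tregs.

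Of 10 other annexin genes, 5 passed the filter and 0 of these passed an unadjusted p of 0.05. Anxa6, the most abundant annexin in these Tregs, was at 204, 234 and 262 RPKM in CML Tregs and 257, 246 and 252 RPKM in naive Tregs, a log2 fold change of -0.11. Anxa5, which binds phosphatidylserine, had a log2 fold change of 0.15 and Anxa7 one of -0.15. Anxa4, an annexin of membrane trafficking, was at 28.4, 12.2 and 32.9 RPKM in CML Tregs and 6.21, 16.7 and 19.8 RPKM in the naive group, and its log2 fold change was 0.77 and an interval of -0.41 to 1.96. CML replicates 1 and 3 exceeded all naive libraries and CML replicate 2 did not, the arrangement also seen for S100a11 and Vim.

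Of 8 other galectin genes, 7 were in the tables, 5 passed the filter and 0 passed an unadjusted p of 0.05. Lgals4, a tandem-repeat galectin, was at 6.81, 6.25 and 14.1 RPKM in CML Tregs and 12.2, 13.7 and 14.4 RPKM in naive Tregs, a log2 fold change of -0.60 with an interval of -1.47 to 0.27. The log2 fold changes of Lgals12, Lgalsl and Lgals8 were 0.68, -0.38 and -0.10. Of 14 other LIM domain and intermediate filament genes, 6 passed the filter and 0 passed an unadjusted p of 0.05. Lmna, encoding lamin A/C of the nuclear lamina, was at 7.04, 2.60 and 10.9 RPKM in CML Tregs and 13.1, 10.7 and 12.8 RPKM in naive Tregs, a log2 fold change of -0.91, and Lmnb1, encoding lamin B1, had one of 0.36. Crip2, the relative of Crip1, was at 0 to 10.9 RPKM in CML Tregs and 0 to 2.78 RPKM in naive Tregs and had a log2 fold change of 1.10 with an interval of -1.13 to 3.32. Of these other S100, annexin and galectin genes, some passed an unadjusted p of 0.05 only when a CML library was left out, S100a8 and S100a9 without CML replicate 1, Anxa4 without CML replicate 2 and Lgals4 without CML replicate 3, and none then passed the adjusted threshold.

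Of 16 genes of known binding partners, 13 passed the filter, and at an unadjusted p under 0.05 2 were higher and 3 lower in CML Tregs, beside the shares of 2.92% and 6.77% given for all genes. Itgb1, the integrin beta 1 chain and a ligand of galectin-1, was the single partner past the adjusted threshold. It was at 85.8, 84.5 and 79.7 RPKM in CML Tregs and 192, 246 and 202 RPKM in naive Tregs. All CML libraries were below all naive libraries, and the log2 fold change was -1.34 with a standard error of 0.16 and an adjusted p of 0.0356 by limma. That call held under 8 of 17 other settings, CML replicate 2 left out among them. It was lost without each of the other 5 libraries in turn and, with all 6 libraries, with a pseudocount of 0.001 (adjusted p = 0.0960), without the filter on low values (0.103) and without a trend in the prior variance (0.192). The log2 fold change ranged from -1.41 to -1.23 over these settings.

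The other partners past the unadjusted threshold were picked out after their values were seen. Havcr2, encoding Tim-3, a receptor of galectin-9, was at 18.6, 9.58 and 19.6 RPKM in CML Tregs and 5.47, 0.270 and 2.91 RPKM in naive Tregs, a log2 fold change of 2.35 with an adjusted p of 0.290 by limma. Lag3, an inhibitory receptor that galectin-3 can bind, had a log2 fold change of 0.999. Mgat5, the enzyme that builds the branched glycans bound by galectins, and Ahnak, a giant scaffold bound by S100a10 with Anxa2, had log2 fold changes of -0.54 and -0.40. Myh9, the myosin heavy chain bound by S100a4, and Cacybp, the partner of S100a6, had log2 fold changes of -0.04 and 0.13 and did not pass the test.

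In the same fit, some other genes linked to activation gave larger fold changes. Of 22 companion genes of effector T cells, 21 passed the filter, 8 were higher and 2 lower in CML Tregs at an unadjusted p under 0.05, beside 2.92% and 6.77% of all genes, and 0 passed the adjusted threshold. Gzmb, encoding granzyme B, was at 123, 112 and 178 RPKM in CML Tregs and 6.74, 15.02 and 31.2 RPKM in the naive group, and its log2 fold change was 3.10, an unadjusted p of 0.000207 and an adjusted p of 0.0729 by limma. Every CML library was above every naive library, CML replicate 2 included. Prdm1, encoding Blimp-1 of effector Tregs, had a log2 fold change of 1.15, the costimulatory receptor Tnfrsf4 one of 1.06 and the chemokine receptor Cxcr3 one of 0.68, with adjusted p values of 0.131, 0.161 and 0.271 by limma. The study lists Tnfrsf4 with its most upregulated genes from these same mice, so its call and that of this fit differ. By FACS it also found Tnfrsf4 protein on a substantial fraction of Tregs in CML BM. Of 17 other settings, Tnfrsf4 passed the adjusted threshold in 5, Prdm1 in 4 and Gzmb in 1. With other pseudocounts, other filters on low values, no variance trend or a replicate block, 0 companions passed. The count was also 0 when any library except CML replicate 2 was left out. Tnfrsf4 and Prdm1 passed at the same 75th percentile, with quantile normalization, at the same sum without features above 10000 RPKM and with library weights, at adjusted p values of 0.0284 to 0.0378 and 0.0452 to 0.0483. Tnfrsf4 passed without CML replicate 2 as well (0.0295), and Gzmb passed at the same T cell gene level (0.0481). The 2 lower companions, named after their values were seen, were the membrane protein gene Emp3 (-0.92) and the actin-binding protein gene Lsp1 (-0.53). The median log2 fold change of this list was 0.39, beside -0.11 for the 10 genes. Leaving out 1 library gave 4 to 9 higher companions, with 4 without CML replicate 1 and without naive replicate 2.

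Of the 16 genes of resting T cells, all passed the filter, 11 were lower in CML Tregs and 0 higher at an unadjusted p under 0.05, beside 6.77% and 2.92% of all genes, and the median log2 fold change was -1.33. S1pr1, the receptor for exit from tissue, Klf2, the factor that drives S1pr1, and Tcf7, a factor of naive and memory T cells, passed the adjusted threshold with log2 fold changes of -1.82, -1.58 and -1.99. Klf2 was at 91.5, 82.7 and 116 RPKM in CML Tregs and at 317, 327 and 230.4 RPKM in naive Tregs, with no overlap between the groups. These adjusted calls were lost when any of the 6 libraries was left out. With all 6 libraries they were also lost with a pseudocount of 0.001, without the filter on low values and without a trend in the prior variance (adjusted p of 0.137, 0.193 and 0.186 for S1pr1, Klf2 and Tcf7 without the trend). Tcf7 was lost in addition with a pseudocount of 0.1 (0.0523), with a filter of 5 RPKM (0.0516) and with library weights (0.0713). With 1 library left out, 9 to 12 genes of the list were lower at an unadjusted p under 0.05. The 10 genes thus overlapped between the groups in libraries in which 11 of these 16 genes did not, every CML library being below every naive library, beside 12.2% of all genes. A difference between the lists was not tested. The 10 genes and the companion and resting lists were chosen with earlier results of these data known, so the contrast is a description only.

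**Figure D4:**
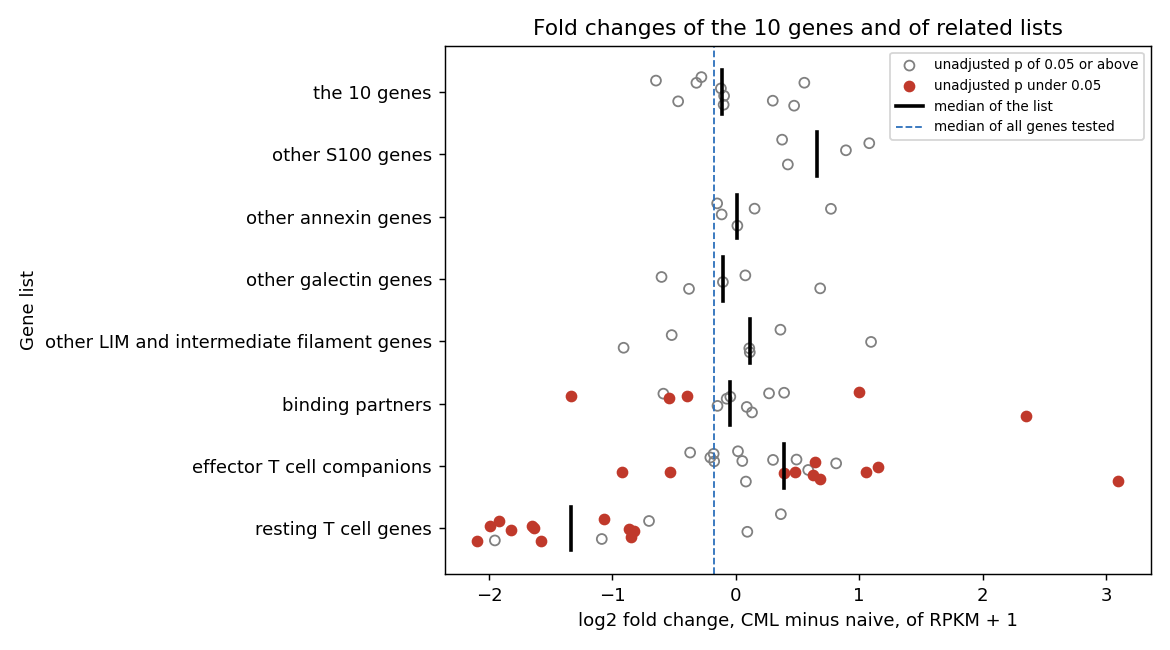
log2 fold change (CML minus naive) of RPKM + 1 for the tested genes of each list, with 1 circle per gene, filled red at an unadjusted p under 0.05, a black bar at the median of the list and a dashed line at the median of all genes tested (-0.18). The 10 genes and the wider S100, annexin, galectin, and LIM and intermediate filament lists hold no red circle, while 10 of 21 effector companions and 11 of 16 resting T cell genes are red.

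The position of S100a11 and Vim depended on the scaling of the libraries. When libraries were set to the same 75th percentile, to the same sum without features above 10000 RPKM, or to the same distribution by quantile normalization, every CML library lay above every naive library for both genes. Their log2 fold changes were then 0.60 to 0.66 for S100a11 and 0.37 to 0.41 for Vim, with adjusted p values of 0.354 to 0.485. When libraries were set instead to the same level of 7 T cell genes, Vim overlapped again, S100a11 stayed above at 97.7, 67.5 and 70.9 against 39.0, 61.5 and 66.1 scaled RPKM, and every CML library lay below every naive library for S100a6 and Anxa2. Over 17 other settings in all, no gene of the 10 reached an adjusted p of 0.05, and the lowest was the 0.200 of Vim without CML replicate 2. Both genes are also in the study's own list of changed genes, which was drawn from these same mice and is no independent evidence of a direction. The study selected genes at an FDR p under 0.05 and a fold of at least 1.5. Its calls and those of the limma fit thus differ for S100a11 and Vim. On the values as deposited, the fit put S100a11 at 1.47-fold and Vim at 1.23-fold, both under that fold threshold. The study's list is also far longer than the 24 genes called here, so the difference in calls is not particular to S100a11 and Vim.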

How the data were processed

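RNA was extracted with the RNeasy Micro Kit from FACS-purified BM Tregs of 3 CML and 3 naive mice. Libraries were made with the SMART-Seq v4 kit, which does not mark the strand, and sequenced as single-end reads on a NextSeq instrument. The authors used SeqMan NGen for assembly and ArrayStar for analysis, and the submitters' processing notes name GRCm38 (mm10). The annotation is not given in the sources used here. The values deposited by the authors were used as RPKM, a unit that the methods do not name. That reading rests on the values, because in small RNA genes the product of value and feature length was close to a whole number of equal steps more often than by spacing alone (31.9% to 59.0% of products in the 6 libraries, against 10%, with a tolerance of 0.05 of a step). The same steps gave the estimated reads, which serve only to describe depth. Read estimates for single genes use the longest GENCODE M21 transcript and, as PCR copies are not independent molecules, cover counting error only. The feature lengths behind the deposited values are not given. Where they are shorter than that transcript, these reads are overstated and the counting errors understated. A deposited value of 0.001 marks no reads and was set to 0.

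Groups and replicate numbers came from the sample labels. Genes averaging 1 RPKM or more across the libraries, 13923 in number, entered a limma fit (version 3.58.1, lmFit and eBayes with trend, R 4.3.3) on log2(RPKM + 1). The fit had no replicate block, and p values were adjusted by Benjamini-Hochberg over all genes tested. All fold changes are on that scale, which understates changes of low genes, and all unadjusted and adjusted p values not called exact come from this fit. A gene was called at an adjusted p under 0.05 and a fold of at least 1.5. Single genes were also compared by exact permutation over the 20 assignments of the mice. Python 3.11.15, numpy 2.4.6, pandas 2.3.3 and scipy 1.17.1 were used for the other steps. The fit was tested on simulated data with the means and spreads of the 13923 genes, 200 of them changed by 2 on the log2 scale. It called 33% of the changed genes, 100% of these in the right direction, with 4 false calls. The methods of the study name DESeq2 and a 2-way ANOVA, and count tests were not run because the values are not counts.

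The 10 genes and all other lists were chosen with earlier results of these data known. The text names all 10 genes, the genes of each other list past the adjusted threshold or otherwise up to 4 with the smallest unadjusted p, marker genes of other cells with the highest levels, and the 5 genes most like the mean profile. Genes named beyond this rule were chosen after their values were seen. For other cells, 1 marker is not reported here. Alternatives were other pseudocounts, other filters on low values, other scalings of the libraries, no variance trend, weights for libraries, a block for the replicate number, and the omission of single libraries. Positions and promoters are from RefSeq on GRCm38.p6, where all 10 gene names matched.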

Additional observations from a re-analysis of the deposited data

How the results depend on the processing

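The log2 fold changes of the 10 genes, their median and the counts of genes below were computed again under 17 other settings. The order of levels, the coefficients of variation, the mean profile, the marker sums and the exact tests were not. Of 170 values of the 10 genes, 159 kept their direction and their side of the adjusted threshold and 11 reversed, 9 of them when a library was left out. The count of the 10 genes past the adjusted threshold was 0 under every setting tried. Over all genes, the count of called genes was 24 as reported, 0 with a pseudocount of 0.001, 1 without the filter on low values, 53 at the same 75th percentile, 53 with quantile normalization, 50 at the same sum without features above 10000 RPKM, 51 at the same T cell gene level, 11 without a trend in the prior variance, 45 with library weights, and 0 to 29 with 1 library left out (8 without CML replicate 3, 0 without naive replicate 1 or 2, and 3 without naive replicate 3). Of the 10 genes, the number higher in CML Tregs at an unadjusted p under 0.05 was 2 at the same 75th percentile, 1 with quantile normalization, 2 at the same sum, 2 with library weights, and 0 to 2 with 1 library left out (2 without CML replicate 2). The number with every CML library above every naive library was 2, 2, 2 and 1 at the same 75th percentile, with quantile normalization, at the same sum and at the same T cell gene level, and 0 to 2 with 1 library left out (2 without CML replicate 2). The number of genes of the wider S100, annexin and galectin lists past that p was 0 to 2 with 1 library left out. The median log2 fold change of the 10 genes ranged from -0.38 to 0.024 with 1 library left out, with the lowest value without CML replicate 3 and the highest without CML replicate 2.

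At the same sum, the log2 fold changes of Anxa2 and Lgals1 turned to 0.013 and 0.011. With 1 library left out, those of 7 genes turned. The range was -0.40 to 0.068 for S100a4 (above 0 without CML replicate 1, and 0.00097 without naive replicate 2), -0.47 to 0.013 for S100a6, -0.20 to 0.0070 for Anxa2, -0.35 to 0.17 for Lgals1 and -1.06 to 0.034 for Crip1 (each above 0 without CML replicate 2, and Lgals1 also at 0.0031 without naive replicate 2). It was -1.14 to 0.21 for Lgals3 (above 0 without CML replicate 1) and -0.32 to 0.99 for Anxa1 (below 0 without CML replicate 3). The causes were not tested.

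Scaling moved the balance over all genes at an unadjusted p under 0.05 from 406 higher and 942 lower to 742 and 757 with quantile normalization, 576 and 918 at the same 75th percentile, 660 and 822 at the same sum, and 371 and 1282 at the same T cell gene level. Over all genes the median log2 fold change was -0.18 as reported and -0.0068 with quantile normalization, where that of the 10 genes was -0.07. Deviations of same-numbered mice had correlations of -0.0048, -0.0016 and -0.019, and those of mice with unlike numbers ran from -0.042 to 0.052. With 3 libraries per group these values cannot show whether the numbers pair the mice, and the labels do not say so. A replicate block gave 1 called gene over all genes and changed no call of the 10. With it the adjusted p was 0.149 for Itgb1, 0.127 for S1pr1, 0.191 for Klf2 and 0.0934 for Tcf7. The fewest reads stood behind Anxa1 in CML replicate 2, an estimated 6.43, and Lgals3 in the CML libraries, 16.1 to 17.9. These estimates take the length of the longest transcript and are too high if the feature was shorter.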
